A study of Mus musculus with 6 samples.

Results

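The FoxO transcription factors, the muscle atrophy ligases that they control and a group of antiproliferative and growth arrest genes were followed in differentiating C2C12 cells, an established line of mouse muscle precursors that fuse into myotubes once serum is reduced. The 10 genes are Foxo1, Foxo3, Foxo4, Fbxo32, Trim63, Btg1, Btg2, Gas1, Gas2 and Gas6. They were chosen by name, with earlier results of these data known. Every probe set that the platform annotation gives to 1 of them alone was kept. This makes 25 of 45033 probe sets and 10 of 18192 genes on the Affymetrix mouse array. Values in units are the deposited intensities, and log2 values, fold changes and tests come from log2(intensity + 16) after quantile normalization. Total RNA of cells transfected with an shRNA against PRDM2, a PR domain histone methyltransferase, was hybridised to 3 arrays, and RNA of cells transfected with an shRNA against GFP to 3 further arrays. All cells of both groups had been kept for 28 hours in medium with 2% horse serum, and the labels call the 3 arrays of a group biological replicates. The design sets the 2 transfections side by side at 1 time point of differentiation.

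FoxO factors are forkhead proteins that Akt phosphorylates and holds in the cytoplasm while insulin or IGF signalling is active. When that signal falls they enter the nucleus, where in muscle they switch on the ubiquitin ligases Fbxo32 (atrogin-1) and Trim63 (MuRF1), which mark muscle proteins for degradation, and in other cells they switch on genes of cell cycle arrest, among them Btg1. The BTG proteins slow proliferation and bring the CCR4-NOT deadenylase to messenger RNAs, and the Gas genes were named after fibroblasts in which they are raised on growth arrest.

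Promoter windows of 300 bases, from 250 before to 50 after a gene's start in RefSeq (build GRCm38.p6), were searched for GTAAACA, the core bound by FoxO factors, on both strands. The table held 9 windows for 8 of the genes, with 2 windows for Gas2; Foxo4 and Fbxo32 were not searched. The letters stood once in the window of Trim63 (chr4:134314870-134315169, plus strand), beginning 194 bases before the start, and once in that of Btg1 (chr10:96616751-96617050, plus strand), beginning 204 bases before it, both times as the reverse complement TGTTTAC. Of all 32851 windows in the table, 3.65% held them. A match of letters is a description and not a binding site. The windows of these 2 genes are shown because they hold the match, which is in capitals.
Trim63: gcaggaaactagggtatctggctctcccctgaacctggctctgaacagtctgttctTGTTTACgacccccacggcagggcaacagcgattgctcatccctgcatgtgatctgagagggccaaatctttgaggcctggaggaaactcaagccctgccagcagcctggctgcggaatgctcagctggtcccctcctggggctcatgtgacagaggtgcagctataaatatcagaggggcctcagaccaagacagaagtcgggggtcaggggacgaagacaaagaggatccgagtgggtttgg
Btg1: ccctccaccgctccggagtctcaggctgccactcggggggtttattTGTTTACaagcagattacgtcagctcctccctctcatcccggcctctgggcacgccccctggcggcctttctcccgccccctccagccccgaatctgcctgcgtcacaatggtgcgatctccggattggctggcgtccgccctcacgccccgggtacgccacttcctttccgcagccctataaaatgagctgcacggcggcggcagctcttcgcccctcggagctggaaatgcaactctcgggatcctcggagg

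No loss of the Prdm2 transcript was seen on arrays that carry the label PRDM2 knockdown, so every direction given here rests on the labels alone. Its brightest probe set read 88.6, 65.5 and 45.4 units in PRDM2 knockdown replicates 1, 2 and 3, and 57.5, 73.9 and 43.9 units in GFP control replicates 1, 2 and 3, a log2 fold change of 0.15 (SE 0.19, adjusted p = 1.00 with limma). The arrays had medians of 10.7 to 11.4 units, and precision is limited by their number. Of 20 muscle and myoblast markers 19 read above 16 units on every array, with summed intensities of 27328 to 29923 units on the knockdown arrays and 24224 to 27627 units on the control arrays. With GFP control replicate 2 left out, as described below, 1 of these 20 rose and 1 fell, against 0.896% of all 18192 genes called higher and 0.704% lower. They were, named after their values were seen, Mef2c, a transcription factor of muscle differentiation, at 1.68 (SE 0.22, adjusted p = 0.027) and Myf5, a determination factor of myoblasts, at -1.90 (SE 0.11, adjusted p = 0.0056, limma). Endothelial and adipocyte markers read at or below 16 units on every array, for 6 of 6 and 4 of 4 genes, and so did 5 of 7 leukocyte, 5 of 6 neuronal and 4 of 5 epithelial markers. Between PRDM2 knockdown and GFP control arrays the summed leukocyte markers ranged from 102 to 195 against 105 to 170 units, endothelial 20.1 to 23.5 against 15.2 to 19.7, adipocyte 5.45 to 15.9 against 7.31 to 19.2, neuronal 40.6 to 45.7 against 43.1 to 50.3 and epithelial 43.6 to 58.1 against 42.6 to 47.2, and their part in the results below was not tested.

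The array labelled GFP control replicate 2 did not resemble the remaining controls. Over the 4548 brightest genes, the median absolute deviation of its log2 difference from PRDM2 knockdown replicate 2 was 0.07. From GFP control replicates 1 and 3 it was 0.37 and 0.35. PRDM2 knockdown replicate 2 in turn lay at 0.27 and 0.25 from PRDM2 knockdown replicates 1 and 3, which lay at 0.19 from each other. GFP control replicate 3 lay at 0.19 from PRDM2 knockdown replicate 3 and at 0.21 from GFP control replicate 1. For 21 of the 25 probe sets described here, GFP control replicate 2 lay closer to the average of the knockdown arrays than to that of the remaining controls, as it did for 65.6% of all probe sets. Whether the label of this array or that of PRDM2 knockdown replicate 2 is right cannot be told from the Prdm2 signal. If either is wrong, the means of its group over all 6 arrays do not measure that group alone. Results are therefore given with all 6 arrays and without GFP control replicate 2. That array was set aside because of these data, so p-values without it are optimistic. The fit without it is called the 5-array fit where that is shorter.

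**Figure D1:**
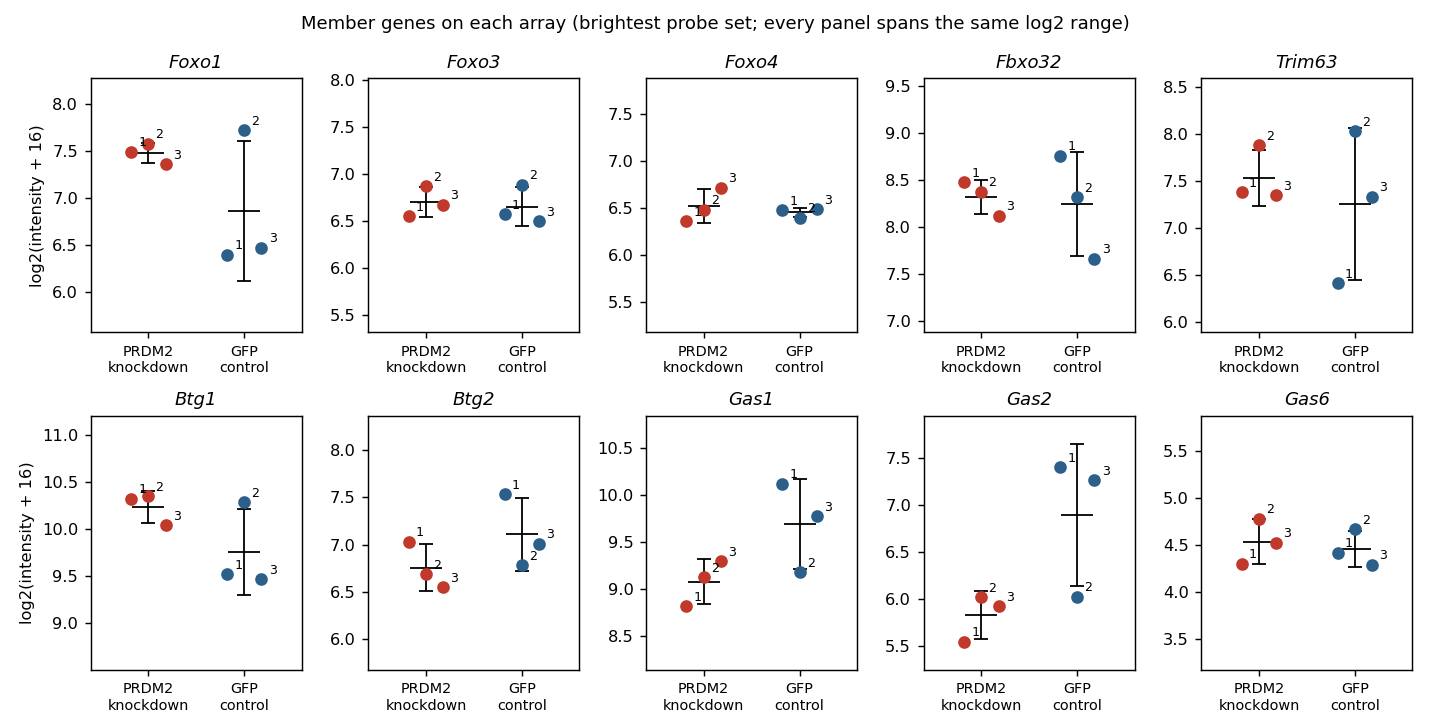
Log2(intensity + 16) after quantile normalization for the brightest probe set of each of the 10 genes. Points are arrays with their replicate number, lines are means and bars the SD (n = 3), PRDM2 knockdown in red and GFP control in blue, and every panel spans the same log2 range. For Foxo1, Btg1, Gas1 and Gas2 the blue point numbered 2 lies with the red points and away from the other 2 blue points.

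With all 6 arrays none of the 25 probe sets passed an adjusted p of 0.05 in either direction (limma, Benjamini-Hochberg over all 45033 probe sets), and 0% of all probe sets did. Without GFP control replicate 2, 2 probe sets of Foxo1 rose and 1 of Gas2 fell, against 0.529% called among all probe sets (0.266% higher and 0.262% lower). At an unadjusted p under 0.05 there were 4 of 25 with all 6 arrays, against 2.94% of all probe sets, and 10 of 25 without GFP control replicate 2, against 10.2%. Probe sets of 1 gene share their transcript and are not independent, and 19 of the 25 lie at or above the median brightness of the array, where fold changes are less damped by the offset of 16 added before the logarithm. Once GFP control replicate 2 was set aside, 7 of the 25 lay wholly above the controls and 4 wholly below, against 12.9% and 13.5% of all probe sets, 26.4% in all. The median absolute log2 fold change was 0.28 over the 25 probe sets and 0.07 over all probe sets with all 6 arrays, and 0.52 against 0.09 without GFP control replicate 2. Because the 10 genes were chosen with earlier results of these data known, these comparisons with all probe sets are not independent of the data.

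Foxo1, which drives atrophy and gluconeogenic genes and restrains myoblast differentiation, was the only FoxO gene with a probe set past the threshold in the 5-array fit. In such samples of many cells, more RNA per cell and more cells of a kind cannot be told apart. Its brightest probe set (1416983_s_at) read 173, 174 and 137 units in PRDM2 knockdown replicates 1, 2 and 3, against 69.1, 201 and 69.8 units in GFP control replicates 1, 2 and 3. GFP control replicates 1 and 3 lay below all knockdown arrays, while GFP control replicate 2 was the highest of the 6. The log2 means were 7.47 ± 0.11 and 6.86 ± 0.74 (SD, n = 3 each), and the log2 fold change of 0.61 (SE 0.34) did not pass (adjusted p = 1.00, limma). It was 0.38 without GFP control replicate 1 alone. In the 5-array fit, Foxo1 rose by 1.04 (SE 0.10, 95% interval 0.81 to 1.28, adjusted p = 0.021, limma), a fold change of 2.06.

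A second probe set of Foxo1 (1416982_at) read 128, 117 and 90.7 units on the knockdown arrays, against 53.8, 131 and 51.4 on the control arrays. It showed the same order, with GFP control replicate 2 on top, and rose by 0.88 without that array (SE 0.11, adjusted p = 0.041, limma). The third (1416981_at) read 205, 133 and 142 units in PRDM2 knockdown replicates 1, 2 and 3, and 96.1, 129 and 71.1 units in GFP control replicates 1, 2 and 3. This was 1 of 2 of the 25 probe sets whose groups did not overlap with all 6 arrays, which 7.24% of all probe sets also showed (3.18% with the knockdown higher and 4.06% lower). The log2 fold change of the third was 0.65 with all 6 arrays (SE 0.19, unadjusted p = 0.013, adjusted p = 1.00, limma) and 0.81 without GFP control replicate 2 (SE 0.17, adjusted p = 0.14, limma). The fourth (1456529_at) was dim, at 9.75 to 17.3 units on the knockdown arrays and 3.42 to 12.5 on the control arrays, with a log2 fold change of 0.27 (SE 0.17). All 4 probe sets of Foxo1 were on the higher side in both fits.

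The 2 calls of Foxo1 depended on the settings. In the 5-array fit with an offset of 1 or 64 in place of 16, the brightest probe set had an adjusted p of 0.17 and 0.060 (limma), and the second 0.23 and 0.093. The second also missed the threshold under the deposited scaling (adjusted p = 0.089). The second kept no call when any further array was left out (adjusted p from 0.050 to 0.45). With 1 further array left out, the brightest probe set kept its call without PRDM2 knockdown replicate 3 but not without PRDM2 knockdown replicate 1 (adjusted p = 0.085), PRDM2 knockdown replicate 2 (0.062), GFP control replicate 1 (0.34) or GFP control replicate 3 (0.15), all by limma. Its log2 fold change in those 5 fits stayed between 0.99 and 1.10.

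Foxo3, a strong inducer of atrophy ligases in muscle, and Foxo4, the X-linked member of the family, had no probe set past the threshold in either fit. The 2 bright probe sets of Foxo3 read 80.1 to 102 and 81.7 to 95.6 units on the knockdown arrays, against 71.7 to 107 and 73.0 to 100.1 on the control arrays. Both were highest in GFP control replicate 2, followed by PRDM2 knockdown replicate 2, and the groups overlapped. Their log2 fold changes were 0.05 (95% interval -0.27 to 0.36) and 0.09 (-0.17 to 0.35). This leaves out a doubling in either direction but not the smaller changes inside these intervals. Foxo4 read 68.0, 74.8 and 82.7 units on the knockdown arrays, against 74.3, 72.2 and 71.0 on the control arrays, a log2 fold change of 0.07 (95% interval -0.18 to 0.31). The third probe set of Foxo3 and the second of Foxo4 read at most 10.04 units on any array and carry no usable difference.

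Neither atrophy ligase passed the test in either fit. The 3 probe sets of Fbxo32, the F-box subunit of an SCF ubiquitin ligase, disagreed in sign, with log2 fold changes of 0.08 (SE 0.27), 0.12 (SE 0.18) and -0.23 (SE 0.17) and overlapping groups. The brightest (1448747_at) read 365, 313 and 243 units in PRDM2 knockdown replicates 1, 2 and 3, and 434, 312 and 178 units in GFP control replicates 1, 2 and 3, so the control arrays held both its highest and its lowest value. Trim63, a RING-finger ligase of the sarcomere with 1 probe set, read 159, 218 and 136 units on the knockdown arrays, against 70.4, 252 and 139 on the control arrays. Its spread among the controls was wide, with GFP control replicate 1 lowest and GFP control replicate 2 highest of the 6. The log2 fold change was 0.28 (SE 0.39, adjusted p = 1.00, limma) and turned to -0.14 without GFP control replicate 1. It was 0.66 in the 5-array fit (SE 0.29, adjusted p = 0.54, limma).

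Btg1 and Btg2, relatives that both restrain proliferation, had fold changes of opposite sign, none of which passed the test over all probe sets in either fit. Btg1 had its brightest probe set (1426083_a_at) at 1343, 1268 and 940.3 units in PRDM2 knockdown replicates 1, 2 and 3, and at 751, 1232 and 667 units in GFP control replicates 1, 2 and 3. Again GFP control replicate 2 lay among the knockdown arrays and the other controls below all of them. The log2 fold change was 0.48 with all 6 arrays (SE 0.23, adjusted p = 1.00, limma) and 0.74 without GFP control replicate 2 (SE 0.12, adjusted p = 0.075, limma). With the brightest probe set of each gene tested alone, over 18192 genes, this value had an adjusted p of 0.047 (limma). It passed too with replicates as blocks, which leaves 2 pairs of arrays (0.69, adjusted p = 0.046, limma). With trend and robust moderation of the variances the adjusted p was 0.025 (limma). It did not pass with the deposited scaling (adjusted p = 0.22), median centring (0.24) or offsets of 1 (0.38) and 64 (0.13, limma). The filter on dim probe sets (adjusted p = 0.058) and array weights (0.065) gave no call either, nor did the mean of the gene's probe sets (0.20, limma). The other 2 probe sets of Btg1 were on the same side, at 0.41 (SE 0.16) and 0.43 (SE 0.36) with all 6 arrays.

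Btg2, a target of p53 and an early response gene, read 121, 88.1 and 71.9 units on the knockdown arrays with its brighter probe set (1416250_at), against 175, 98.2 and 108 on the control arrays. The other (1448272_at) read 70.0, 59.8 and 79.7 units, against 131, 62.4 and 105. In both, GFP control replicate 1 was the highest of the 6 arrays, and GFP control replicate 2 the lowest of the controls. The log2 fold changes were -0.35 (SE 0.21) and -0.36 (SE 0.25) with all 6 arrays, and -0.52 (SE 0.20, adjusted p = 0.46) and -0.64 (SE 0.15, adjusted p = 0.18) without GFP control replicate 2 (limma). Left without GFP control replicate 1 alone they were -0.14 and -0.18, and with both GFP control replicates 1 and 2 left out -0.26 and -0.55. No test of Btg1 against Btg2 was made.

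**Figure D2:**
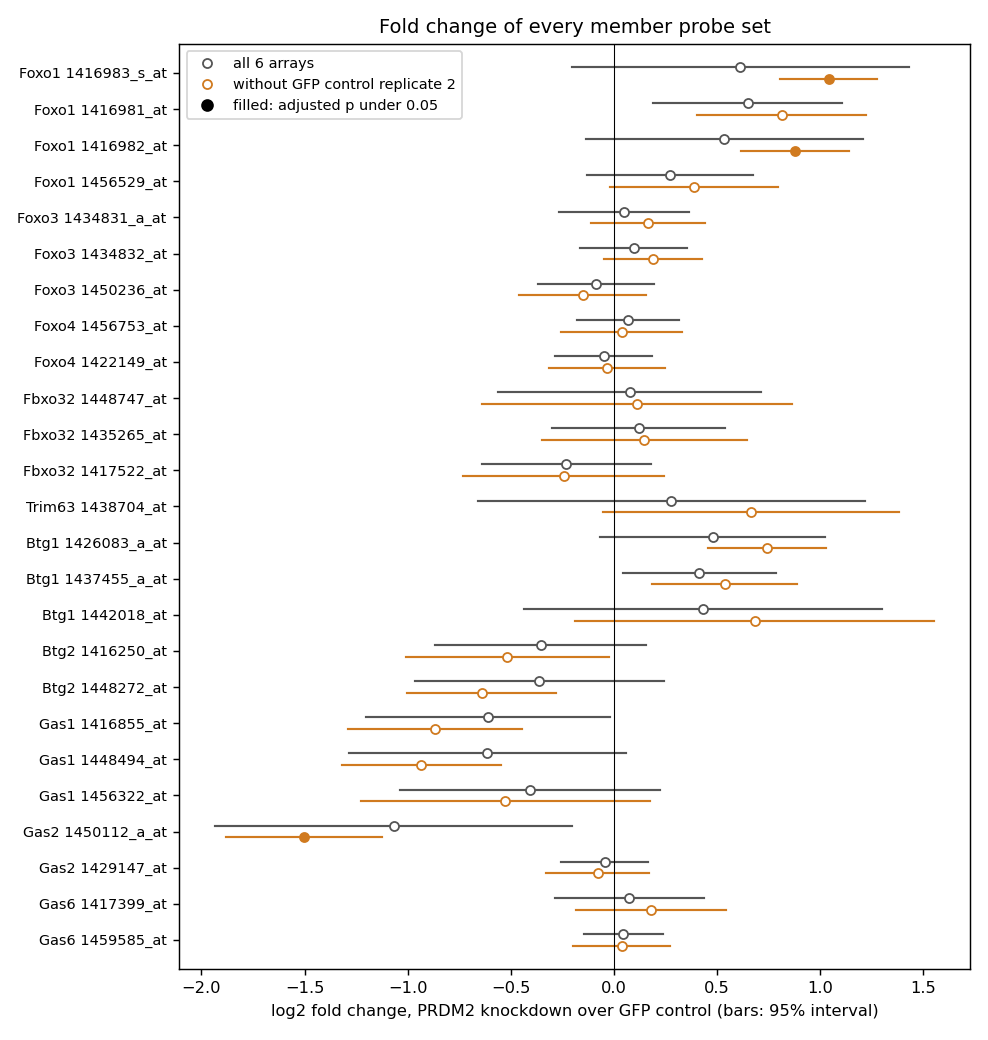
Log2 fold change of PRDM2 knockdown over GFP control for each of the 25 probe sets, with 95% intervals, from all 6 arrays (grey) and without GFP control replicate 2 (orange); filled points have an adjusted p under 0.05. The filled points are 2 of Foxo1 and 1 of Gas2, and all intervals of Foxo3, Foxo4, Fbxo32, Trim63 and Gas6 cross 0 in both fits.

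Every probe set of Gas1 and the brighter probe set of Gas2 were on the lower side, and that of Gas2 passed the threshold without GFP control replicate 2. Gas2, a protein that links actin filaments and microtubules and is cut by caspases, read 31.0, 50.3 and 41.7 units in PRDM2 knockdown replicates 1, 2 and 3 (1450112_a_at), and 157, 52.2 and 131 units in GFP control replicates 1, 2 and 3. The groups did not overlap, but GFP control replicate 2 exceeded PRDM2 knockdown replicate 2 by only 0.01 on the log2 scale. The log2 means were 5.83 ± 0.25 and 6.90 ± 0.76 (SD, n = 3 each), a fold change of -1.07 on the log2 scale with all 6 arrays (SE 0.36, unadjusted p = 0.023, adjusted p = 1.00, limma). In the 5-array fit, Gas2 fell by 1.502 on the log2 scale (SE 0.16, 95% interval -1.88 to -1.12, adjusted p = 0.026, limma), a fold change of 0.35 with the offset included. On the deposited intensities the mean of the knockdown arrays was 0.28 of the mean of GFP control replicates 1 and 3.

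That call of Gas2 was lost with an offset of 1, where the log2 fold change was -1.81 (adjusted p = 0.14), and with an offset of 64, where it was -0.99 (adjusted p = 0.067, limma), so its size depends on the offset and its direction did not. It was kept without PRDM2 knockdown replicate 1 as well, and lost without PRDM2 knockdown replicate 2 (adjusted p = 0.062), PRDM2 knockdown replicate 3 (0.065), GFP control replicate 1 (0.40) or GFP control replicate 3 (0.18), by limma, with log2 fold changes between -1.60 and -1.36 over these 5 fits. The second probe set of Gas2 read 4.17 to 6.82 units on the knockdown arrays and 4.70 to 8.00 on the control arrays, near the floor of the scale. Its log2 fold change was -0.05 (SE 0.09) with all 6 arrays, and it carries no usable difference.

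Gas1, a membrane-anchored protein that blocks entry into S phase when overexpressed and acts as a hedgehog co-receptor, read 466, 539.9 and 557 units on the knockdown arrays with its brightest probe set (1416855_at), against 1172, 573 and 830.3 on the control arrays. The second (1448494_at) read 260.3, 258 and 325 units, against 605, 286 and 509. In both, GFP control replicates 1 and 3 exceeded every knockdown array. GFP control replicate 2 lay among the knockdown arrays in the second, and in the first just above them as deposited and among them after quantile normalization. With all 6 arrays the log2 fold changes were -0.61 (SE 0.25, unadjusted p = 0.045) and -0.61 (SE 0.28, unadjusted p = 0.068), both with an adjusted p of 1.00 (limma), and -0.40 and -0.43 without GFP control replicate 1. In the 5-array fit they were -0.87 (SE 0.17, adjusted p = 0.12) and -0.93 (SE 0.16, adjusted p = 0.085). Both passed when the moderation of variances used a trend and robust settings (adjusted p = 0.040 and 0.028, limma). The second also passed without PRDM2 knockdown replicate 3 (adjusted p = 0.047, limma). Neither passed with an offset of 1 (adjusted p = 0.38 and 0.32) or 64 (0.22 and 0.16, limma). The deposited scaling (adjusted p = 0.12 and 0.078) and median centring (0.14 and 0.084, limma) gave no call. Nor did array weights (adjusted p = 0.11 and 0.080), the filter on dim probe sets (0.079 and 0.054) or the replicate block (0.11 and 0.063, limma). The third and dimmest probe set of Gas1 gave -0.41 (SE 0.26) with all 6 arrays.

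Gas6, a vitamin K-dependent ligand of the receptors Tyro3, Axl and Mertk, was at the floor of the scale. Its 2 probe sets read 1.63 to 11.1 units on the knockdown arrays and 1.97 to 9.14 on the control arrays, so Gas6 was not above 16 units on any array and a difference was not detectable at this signal. Dim values of this kind were also seen in 1 further probe set each of Foxo3, Foxo4 and Gas2, which leaves these 5 probe sets at or below 16 units on every array.

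**Figure D3:**
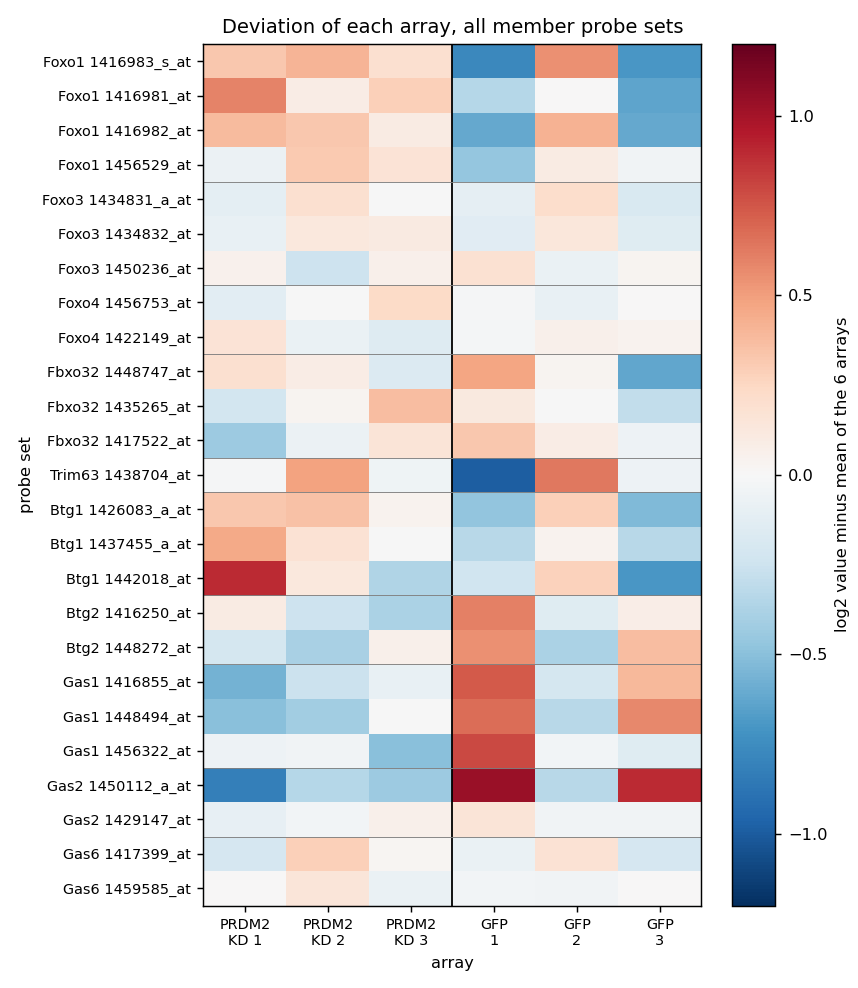
Log2 value of each array minus the mean of the 6 arrays for all 25 probe sets, with the PRDM2 knockdown arrays left and the GFP control arrays right of the line; red is above and blue below the mean. In Foxo1 and Btg1 the columns of GFP control replicates 1 and 3 are blue, in Gas1 and Gas2 they are red in the bright probe sets, and the column of GFP control replicate 2 resembles that of PRDM2 knockdown replicate 2.

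Same-numbered arrays were also set against each other. PRDM2 knockdown replicate 2 minus GFP control replicate 2 stayed within 0.21 log2 units for each of the 25 probe sets. The median absolute difference over the 25 was 0.75 for number 1, 0.09 for number 2 and 0.32 for number 3, against 0.13, 0.07 and 0.10 over all probe sets. Most of the 25 are brighter than the median probe set, where the offset damps differences less. They were not compared with probe sets of like brightness. For Gas2 the differences were -1.86, -0.01 and -1.34 in numbers 1, 2 and 3, for the brightest probe set of Foxo1 1.10, -0.15 and 0.89, and for that of Btg1 0.80, 0.06 and 0.57. All 3 differences had the same sign in 10 of the 25 probe sets, against 29.3% of all probe sets.

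With replicates as blocks and all 6 arrays, none of the 25 probe sets passed (smallest adjusted p = 0.63, limma), while 12 had an unadjusted p under 0.05 against 7.84% of all probe sets. With both arrays numbered 2 left out and the block kept, 4 probe sets rose and 1 fell, against 0.899% called higher and 0.693% called lower among all probe sets, 1.59% in all. They were 3 probe sets of Foxo1, at 0.99, 0.93 and 0.85 (adjusted p = 0.017, 0.016 and 0.031), the brightest of Btg1 at 0.69 (adjusted p = 0.046) and that of Gas2 at -1.60 (adjusted p = 0.012), all by limma on 2 pairs of arrays. Without the block those 4 arrays gave 0 calls among the 25, against 0.127% of all probe sets, and 9 at an unadjusted p under 0.05, against 9.95%.

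The other genes of these pathways were counted with 1 probe set per gene, over 18192 genes. With all 6 arrays 0 of them were called in any of the 9 lists, nor was any gene of the array (0%, limma; 3.3% at an unadjusted p under 0.05). Without GFP control replicate 2, 1.6% of all genes were called (0.896% higher and 0.704% lower), and 5 genes of the lists were. In the input from PI3K, Akt and Sgk kinases to FoxO 1 of 18 measured genes rose and 0 fell (median log2 fold change 0.01, against -0.01 over all genes). It was Pik3r1, the regulatory subunit p85 alpha of PI3K, at 109, 117 and 107 units on the knockdown arrays, against 52.0, 121 and 48.8 on the control arrays. Its log2 fold change was 0.60 (SE 0.26) with all 6 arrays and 0.93 (SE 0.09, adjusted p = 0.015, limma) without GFP control replicate 2.

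Among FoxO partners and modifiers 1 of 20 rose and 0 fell (median 0.03). Sirt2, a deacetylase that acts on FoxO proteins, read 211, 208 and 197 units on the knockdown arrays, against 135, 209 and 135 on the control arrays, with 0.38 (SE 0.15) over all 6 arrays, and rose by 0.55 without GFP control replicate 2 (SE 0.09, adjusted p = 0.044, limma). Among other FoxO targets in arrest, stress and survival 0 of 32 rose and 1 fell (median 0.04). Cited2, which binds the coactivators CBP and p300, read 336, 388 and 339 units on the knockdown arrays, against 732, 406 and 596 on the control arrays, with -0.62 (SE 0.21) over all 6 arrays, and fell by 0.86 on the log2 scale without GFP control replicate 2 (SE 0.12, adjusted p = 0.035, limma). As with Foxo1 and Gas2, GFP control replicate 2 read close to PRDM2 knockdown replicate 2 in these 3 genes.

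In the list of Gas1 partners in hedgehog and GDNF signalling 0 of 18 rose and 2 fell (median -0.07). Gli3, a transcription factor at the end of the hedgehog pathway, read 74.5, 82.7 and 82.9 units on the knockdown arrays, against 168, 95.5 and 133 on the control arrays, with -0.57 (SE 0.19) over all 6 arrays, and fell by 0.78 on the log2 scale without GFP control replicate 2 (SE 0.12, adjusted p = 0.038, limma). Hhip, a membrane protein that binds hedgehog ligands, read 7.80, 11.9 and 12.8 units on the knockdown arrays, against 35.0, 11.8 and 29.3 on the control arrays, with -0.60 (SE 0.23) over all 6 arrays, and fell by 0.86 without GFP control replicate 2 (SE 0.12, adjusted p = 0.034, limma), a size that the offset damps. In the 5-array fit with an offset of 1, none of the 5 pathway genes kept an adjusted p under 0.05 (range 0.084 to 0.24), and with an offset of 64 Pik3r1 alone did (limma). With GFP control replicate 1 also left out the 5 had adjusted p-values of 0.22 to 0.39, and with GFP control replicate 3 also left out 0.11 to 0.18 (limma). Leaving out any 1 knockdown array as well also ended the calls of Sirt2, Cited2, Hhip and Gli3 (adjusted p from 0.060 to 0.12), while Pik3r1 kept its call in these 3 fits (0.037 to 0.040, limma).

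The remaining 5 lists held no call in either fit. Other genes raised in atrophy or by FoxO in muscle had 0 of 24 (median 0.01 without GFP control replicate 2), and their smallest p-values with all 6 arrays were those of the autophagosome gene Map1lc3a (-0.44, SE 0.18) and the lysosomal protease Ctsl (-0.23, SE 0.11). Other ubiquitin ligases of muscle had 0 of 19 (median 0.05), with Fbxo30, an F-box ligase of atrophy, at 0.23 (SE 0.11) and Trim32 at -0.23 (SE 0.12). The BTG/TOB family and the CCR4-NOT deadenylase had 0 of 14 (median 0.03), with the deadenylase Cnot6 at 0.21 (SE 0.09) and the subunit Cnot9 at -0.16 (SE 0.11). In the 5-array fit Map1lc3a was at -0.57, Ctsl at -0.31, Fbxo30 at 0.33, Trim32 at -0.30, Cnot6 at 0.26 and Cnot9 at -0.23.

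Gas6 receptors and relatives had 0 of 7 called. Tyro3 read 11.03, 17.3 and 12.2 units on the knockdown arrays, against 27.2, 22.3 and 24.2 on the control arrays, with a log2 fold change of -0.47 (SE 0.11, unadjusted p = 0.0043, adjusted p = 1.00, limma). Its groups did not overlap with all 6 arrays, which 7.24% of all probe sets also showed (4.06% with the knockdown lower). Axl read 457, 556 and 337 units, against 296, 569 and 217, with a log2 fold change of 0.41 (SE 0.32), and was highest as deposited in GFP control replicate 2. In the 5-array fit Tyro3 was at -0.52 (adjusted p = 0.12) and Axl at 0.77 (adjusted p = 0.14, limma). With replicates as blocks, which leaves 2 pairs of arrays, both passed, Tyro3 at -0.61 (adjusted p = 0.032) and Axl at 0.61 (adjusted p = 0.028), against 1.69% of all genes called lower and 2.27% called higher, 3.96% in all (limma). The same 4 arrays without the block gave these folds with an adjusted p of 0.084 for Tyro3 and 0.17 for Axl (limma). Other growth arrest genes had 0 of 9, with Ddit3, a stress-induced transcription factor, at -0.23 (SE 0.24) and the growth factor receptor Pdgfra at 0.29 (SE 0.45). Pdgfra read 22.5, 60.3 and 29.3 units on the knockdown arrays, against 12.8, 69.7 and 14.8 on the control arrays. In the 5-array fit Ddit3 was at -0.13 (SE 0.26) and Pdgfra at 0.78 (SE 0.27, adjusted p = 0.27, limma).

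**Figure D4:**
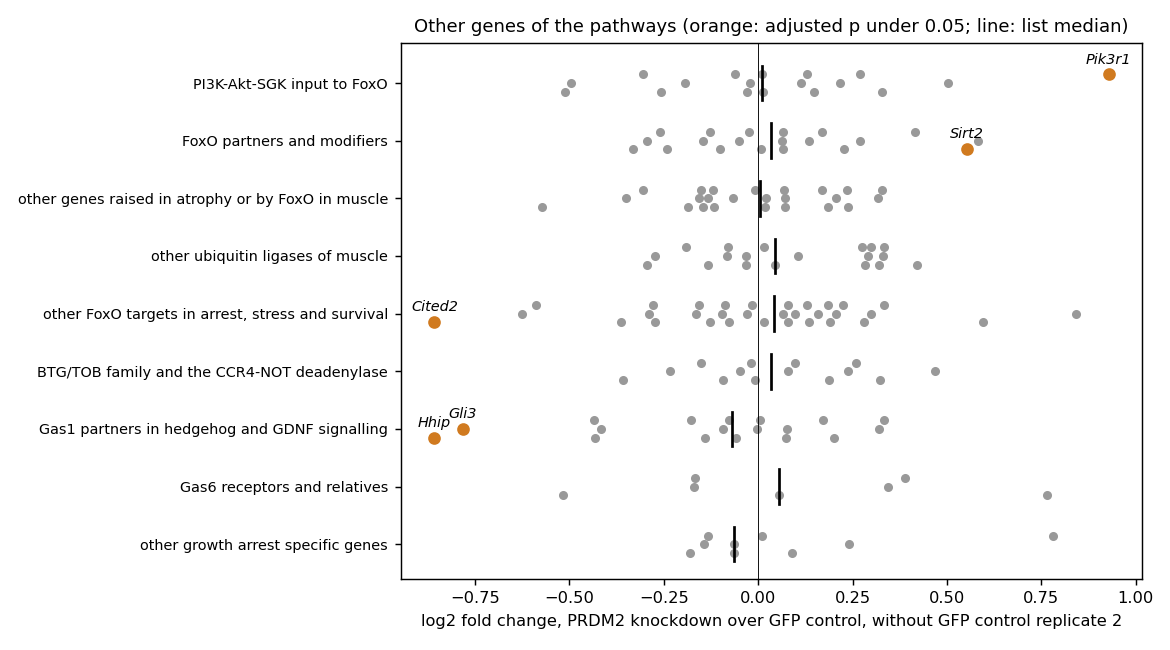
Log2 fold change of PRDM2 knockdown over GFP control without GFP control replicate 2 for the other genes of 9 pathway lists, 1 probe set per gene; orange points have an adjusted p under 0.05, grey points do not, and the black line is the list median. The 5 orange points are Pik3r1 and Sirt2 on the higher side and Cited2, Hhip and Gli3 on the lower side, and every list median lies between -0.07 and 0.06.

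Gas2 and Foxo1 varied most over the 6 arrays among the 10 genes, with SDs of 0.77 and 0.58 log2 units. The genes most like them were sought among 9095 others at or above the median brightness, by the root-mean-square distance between log2 values centred on each gene's mean over the 6 arrays. Nearest to Gas2 were Igfbp5, an IGF binding protein (distance 0.03), the adhesion receptor Adgrg6 (0.07), the serpin Serpinb6b (0.08) and Gchfr (0.09). Igfbp5 read 908, 1161 and 957 units on the knockdown arrays, against 3229, 1171 and 2619.8 on the control arrays. Nearest to Foxo1 were the sulfotransferase Chst15 (distance 0.05), the aryl hydrocarbon receptor Ahr (0.07), Wnt10a (0.08) and the cadherin Cdh13 (0.08). Chst15 read 218, 231 and 183 units on the knockdown arrays, against 95.4, 240.0 and 90.6 on the control arrays, with GFP control replicate 2 highest. These distances describe 6 arrays, of which GFP control replicate 2 and PRDM2 knockdown replicate 2 are nearly alike, and were not tested.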

How the data were processed

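RNA of 6 C2C12 samples was measured on 1 Affymetrix mouse array each, extracted with Trizol per the labels' protocols. The authors deposited 1 linear intensity per probe set and array. GCOS and PLIER are named in the submitters' processing notes, without versions or steps; the normalization between arrays has no description in the sources used here. Deposited were 45101 probe sets, with 0 further columns of samples. Left out were 64 control probe sets and 4 of Gngt1 with a cell equal to that gene's Entrez number, which leaves 45033. Genes were named from the platform annotation (34941 probe sets name 1 gene, 932 several, 9160 are unnamed here), and the 10 genes matched RefSeq by Entrez number. A probe set whose name ends in _s_at or _a_at can read several transcripts.

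Intensities were taken as log2(intensity + 16), quantile normalized and fitted without a block in limma 3.58.1 (R 4.3.3; lmFit, then eBayes; two-sided) over all probe sets, calling an adjusted p (Benjamini-Hochberg) under 0.05. A log2 fold change on this scale understates the change of dim genes. Standard errors are limma's moderated ones. Nothing in the labels says whether the biological replicates were separate cultures, so p-values measure the spread between these samples.

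Deviations from the group means correlated at 0.32, 0.60 and 0.62 between same-numbered arrays, each over 0.1. The blocked fit was therefore read as paired, from the data and not from the labels. Deviations within a group are tied by their shared mean, and the arrays numbered 2 are nearly alike. These correlations are thus not separate evidence of pairing. The 10 genes, the pathway and marker lists and the view without GFP control replicate 2 were chosen with earlier results of these data known. Named were all 10 genes, the list genes past the threshold or, in lists without one, the 2 of smallest p, and the 4 nearest genes to the 2 most variable members. Alternatives were other scalings, offsets, a filter on dim probe sets, 1 value per gene, trend and robust moderation, array weights, the block and left-out arrays.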

Additional observations from a re-analysis of the deposited data

How the results depend on the processing

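The count of 0 probe sets called with all 6 arrays also came out with offsets of 1 and 64, median centring, the deposited scaling, the filter on dim probe sets, both gene-level settings, trend and robust moderation, array weights and the replicate block, for the 25 probe sets and for all. Leaving out 1 array gave 0 to 238 calls over all probe sets and 0 to 3 among the 25, with calls among these fits only without GFP control replicate 2. Without both arrays numbered 2 there were 57 calls, and 717 with the replicate block, 5 of them among the 25. Without GFP control replicate 2, the 238 calls became 132 with the deposited scaling, 127 with median centring, 11 and 14 with offsets of 1 and 64, 528 with trend and robust moderation, 369 with array weights and 717 with the replicate block. The 3 calls among the 25 became 0 with either offset, 6 with trend and robust moderation and 5 with the replicate block. With that block PRDM2 knockdown replicate 2 has no partner left. The 717 and 5 are therefore the blocked fit without both arrays numbered 2 again, and not a second result. Leaving out 1 more array gave 5 to 124 calls over all probe sets and 0 to 2 among the 25; the fewest, 5 and 0, came without GFP control replicate 1, and without GFP control replicate 3 there were 12 and 0. These alternatives to the 5-array fit, and those of the pathway genes, were chosen after seeing the data, and apart from fewer arrays the cause of each loss was not tested. Of single values, none that passed the threshold reversed. Fbxo32 (1448747_at) came to -0.011 when the probe sets of a gene were averaged, and Gas6 (1459585_at) to -0.023 without both arrays numbered 2, with or without the replicate block. Leaving out 1 array of 6 moved log2 fold changes across 0 over the ranges -0.049 to 0.19 for Gas6 (1417399_at), -0.037 to 0.17 for Foxo3 (1434831_a_at), -0.15 to 0.014 for Foxo3 (1450236_at), -0.015 to 0.096 for Gas6 (1459585_at), -0.14 to 0.015 for Foxo4 (1422149_at), -0.036 to 0.26 for Fbxo32 (1435265_at), -0.031 to 0.15 for Foxo4 (1456753_at), -0.089 to 0.022 for Gas2 (1429147_at), -0.14 to 0.66 for Trim63 (1438704_at) and -0.21 to 0.33 for Fbxo32 (1448747_at). Leaving out 1 more array of 5 did so over -0.023 to 0.087 for Gas6 (1459585_at), -0.13 to 0.031 for Foxo4 (1422149_at), -0.062 to 0.36 for Fbxo32 (1435265_at), -0.059 to 0.12 for Foxo4 (1456753_at), -0.18 to 0.022 for Gas2 (1429147_at), -0.43 to 0.66 for Fbxo32 (1448747_at) and -0.38 to 0.059 for Ddit3. In the other settings 256 of 264 values of the 25 probe sets kept direction and side of the threshold with all 6 arrays, and 199 of 214 in the 5-array fit. Signal near background limits Gas6 and the dim probe sets of Foxo3, Foxo4 and Gas2, and Gas2, Hhip and Tyro3 lie low enough on some arrays for the offset to set their fold changes.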

Other observations

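A probe set annotated both to Foxo3 and to the predicted gene Gm38485 (1444226_at) was kept out of the 25. It read 6.79, 6.42 and 7.35 units in PRDM2 knockdown replicates 1, 2 and 3, and 4.48, 5.38 and 4.68 units in GFP control replicates 1, 2 and 3, all under the offset of 16. Its log2 fold change was 0.12 (SE 0.07, adjusted p = 1.00, limma), and it cannot be assigned to either gene.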
